A study of Saccharomyces cerevisiae with 2 samples.

Results

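Rhodanese genes of the budding yeast Saccharomyces cerevisiae were followed in 2 strains, UV02_HG and MF02. The 4 genes are RDL1 (YOR285W), RDL2 (YOR286W), TUM1 (YOR251C) and YCH1 (YGR203W), out of 7163 features in the deposited table. RDL1 was chosen because its level was very high in UV02_HG and far above that in MF02, and the other 3 genes were added as its relatives, so the difference in RDL1 is a description and no evidence was drawn from it. All 4 genes were measured and passed the filter on low values. UV02_HG is named in the labels by its strain name alone, and MF02 is called wild type there. Its title describes the series as a profile of high glucose tolerance, and how UV02_HG was made was not stated in those labels. Both strains were grown at 40% (w/v) glucose to mid-exponential phase, a condition that MF02 therefore shared.

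Rhodaneses are sulfurtransferases. They take a sulfur atom from a donor such as thiosulfate onto a cysteine of the enzyme as a persulfide and pass it to an acceptor, for example a small thiol such as glutathione. Rdl1 and Rdl2 are single-domain thiosulfate sulfurtransferases found with mitochondria. Tum1 hands sulfur from the cysteine desulfurase Nfs1 to Uba4, the start of a relay that thiolates the wobble uridine of some transfer RNAs. Ych1 is a phosphatase with a rhodanese-homology domain, related to the cell cycle phosphatase Mih1 and the arsenate reductase Arr2. In the notes of the R64 annotation (NCBI RefSeq), thiosulfate sulfurtransferase activity is recorded for these 4 genes and UBA4 and for no other gene.

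Levels are FPKM, reads scaled by gene length and library total. Comparisons of levels between genes of unlike length are limited by the length trend given below. There were 2 columns of values per strain but 1 sample per strain in the labels. The series' design text speaks of duplicates without saying whether these were separate cultures, so the spread between columns may be that of runs or of replicates. The columns were taken here as runs of 1 sample, the strain value is their mean, and no difference below has a replicate check or a p-value. Ratios are log2 of UV02_HG over MF02 after adding 1 FPKM, which understates differences of weakly expressed genes. The range over the 4 comparisons of one UV02_HG column with one MF02 column follows the ratio or fold of each member and of some other genes. Genes without a printed range can change sign between these comparisons. The columns rested on 12507299 and 13040931 reads in UV02_HG and on 12796339 and 15144991 reads in MF02. The median ratio of the 6291 features that reached 1 FPKM in UV02_HG or MF02 was -0.89. Of them 14.7% (927) were 2-fold higher or more in UV02_HG and 47.2% (2967) were 2-fold lower or more. Rescaling the columns to equal FPKM totals, scaling by the trimmed mean of M values and centring on the median feature moved that median by -1.08, 0.78 and 0.89, and gave 333 higher and 4424 lower, 1669 and 1429, and 1797 and 1296 features in the same order. The ratio also followed length. Genes coding for 300 to 500 nt (572 genes) had a median ratio of 0.67, and those of 1000 to 2000 nt (2161 genes) had -1.38. The ratios of the members and of many other genes are therefore also given relative to genes of the same length. That is the ratio minus the median ratio of the about 200 genes nearest in coding length. The MF02 columns also parted from one another by length. Their median log2 ratio of column 2 over column 1 was -0.38 for genes nearest in length to RDL1 (420 nt). It was 0.27 near TUM1 (915 nt) and 1.37 near SNF2 (5112 nt). In UV02_HG the same medians were 0.11, -0.09 and 0.12.

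RDL1 was among the most abundant messages of UV02_HG. It stood at 26229 and 41418 FPKM in UV02_HG, against 3422 and 1184 FPKM in MF02. Both UV02_HG columns were at least 2-fold above both MF02 columns, as they were for 8.68% of all features. In each strain the columns differed from one another. The log2 ratio of column 2 over column 1 was 0.66 in UV02_HG and -1.53 in MF02. For genes of its length the same column ratios had medians of 0.11 and -0.38. RDL1 was 14.7-fold higher in UV02_HG, with a range from 7.66 to 35.0-fold, a log2 ratio of 3.88 (2.94 to 5.13). Against the median feature this was 4.77.

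Measured by reads, RDL1 took 137781 and 226856 reads in UV02_HG, against 18392 and 7529 reads in MF02. Its share was 1.10% of all counted reads in UV02_HG column 1 (95% Wilson interval 1.096 to 1.107%) and 1.74% in column 2 (1.73 to 1.75%). In MF02 the shares were 0.144% in column 1 (0.142 to 0.146%) and 0.0497% in column 2 (0.0486 to 0.0508%). These intervals cover counting error only and are far narrower than the gap between columns of one strain. By FPKM, RDL1 ranked 11th and 7th of the 7163 features in the UV02_HG columns and 73rd and 183rd in the MF02 columns. It was thus already in the upper few percent of features in MF02, with 98.98% and 97.4% of features below it.

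**Figure D1:**
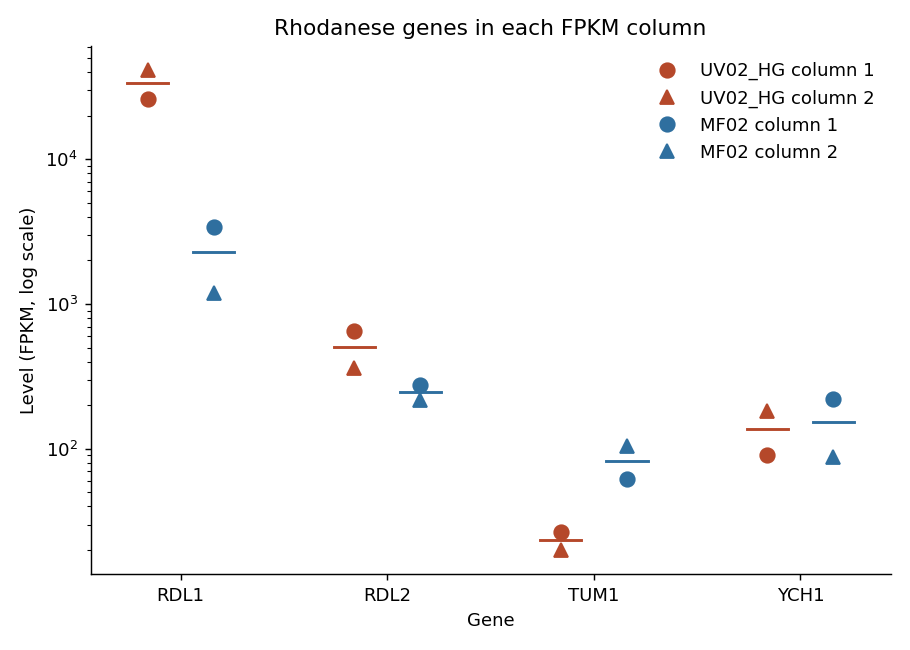
Level of each rhodanese gene (FPKM, log axis) in the UV02_HG columns and the MF02 columns. Circles and triangles are columns 1 and 2 and short lines are their means, which for RDL1 stand at 33823 FPKM in UV02_HG and 2303 FPKM in MF02, while the YCH1 columns of the strains overlap.

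RDL1 is short, and short genes stood high in UV02_HG. Its coding length is 420 nt, and the genes nearest in length, from 384 to 456 nt, had a median ratio of 0.61. Relative to them RDL1 was at 3.27 (2.52 to 4.35), so most of its raw ratio remained. Among these genes, 72 were at least 2-fold higher in UV02_HG, and 1 had a larger ratio than RDL1. That gene is EMA17, singled out after its value was seen, at 76.8 and 107 FPKM in UV02_HG and 0.182 and 0 FPKM in MF02. None of these genes had a higher level than RDL1 in UV02_HG, where their median was 157 FPKM, while 15 of them did in MF02, where their median was 138 FPKM. Across all 5695 expressed protein-coding genes, RDL1 stood 11th by the ratio relative to length.

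RDL2, the annotated gene next downstream of RDL1 on the same strand, differed far less. It had 649 and 361 FPKM in UV02_HG, against 275 and 218 FPKM in MF02. The UV02_HG columns were above the MF02 columns, though the lower UV02_HG column was close to the higher MF02 column. The ratio was 1.03 (0.39 to 1.57), or 2.05-fold higher. Rescaling to equal FPKM totals turned it to -0.07, whereas it was 1.92 against the median feature. Relative to genes of its length, 450 nt, it was 0.56 (0.06 to 0.97), and 62 of the genes nearest in length had a larger ratio. RDL1 was 40.4 and 115 times the level of RDL2 in the UV02_HG columns, against 12.4 and 5.44 times in the MF02 columns.

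TUM1, the sulfur donor to Uba4, went the other way. It had 26.7 and 19.9 FPKM in UV02_HG (305 and 238 reads), against 62.0 and 104 FPKM in MF02 (726 and 1441 reads). Both UV02_HG columns lay at least 2-fold below both MF02 columns, as they did for 24.9% of all features. The gene was 3.46-fold lower in UV02_HG (2.28 to 5.01-fold), a log2 ratio of -1.79. Against the median feature the ratio was -0.90, and with the trimmed mean of M values it was -0.93, so it no longer reached 2-fold. Relative to genes of its length, 915 nt, it was -0.86 (-1.25 to -0.53). Of the about 200 genes nearest to it in length 96 were at least 2-fold lower, and 161 had a ratio above that of TUM1.

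YCH1, the phosphatase, did not separate the strains. It had 90.9 and 183 FPKM in UV02_HG, against 221 and 88.0 FPKM in MF02. The columns of the strains overlapped, and the spread within each strain was wider than the gap between the means of 137 FPKM in UV02_HG and 154 FPKM in MF02. The ratio was -0.17 and ran from -1.27 to 1.05, positive in some column comparisons and negative in others. It was 0.72 against the median feature and -1.19 with equal FPKM totals. Relative to genes of its length, 447 nt, YCH1 was at -0.67 (-1.59 to 0.34).

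Within the family, 2 of the 4 genes were thus at least 2-fold higher in UV02_HG (14.7% of all features were) and 1 was at least 2-fold lower (47.2%). Relative to length 1 gene, RDL1, was at least 2-fold higher, against 17.3% of protein-coding genes, and 0 were at least 2-fold lower, against 16.9%. In all 4 column comparisons RDL1 was at least 2-fold higher, as were 8.68% of features, and TUM1 at least 2-fold lower, as were 24.9%. RDL1 had been chosen by this contrast, so nothing is read from its place in these counts. The median ratio of the 4 genes was 0.43, and relative to length it was -0.05.

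The order of levels by mean FPKM was RDL1, RDL2, YCH1 and TUM1 in both strains. These levels were not adjusted for the length trend, and TUM1 is longer (915 nt) than YCH1 (447 nt). RDL1 was the highest in every column. In UV02_HG the other 3 genes kept the order RDL2, YCH1, TUM1 in each column. In MF02 RDL2 was 1.25 times YCH1 in column 1, and in column 2 YCH1 was 0.847 times TUM1, so YCH1 and its neighbours in that order did not part beyond the spread of the columns. RDL1 was 289 and 226 times YCH1 in UV02_HG, against 15.5 and 13.4 times in MF02. Unlike the ratio to RDL2, this one was close between the columns of each strain, since RDL1 and YCH1 both stood higher in column 2 of UV02_HG and lower in column 2 of MF02.

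**Figure D2:**
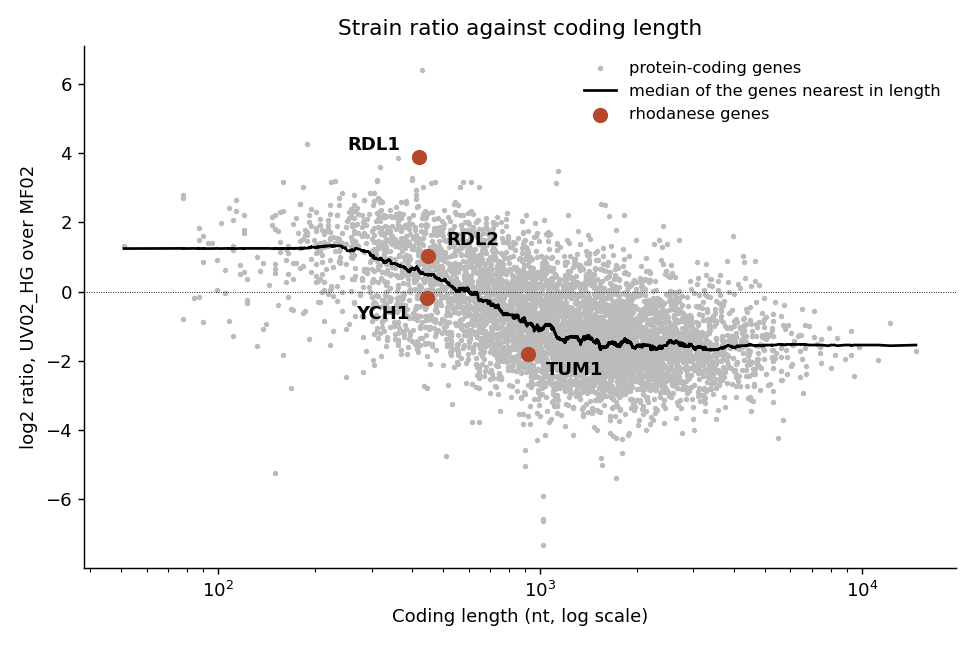
The log2 ratio of UV02_HG over MF02 (y axis) against coding length (nt, log axis) for 5695 protein-coding genes, with the median of the genes nearest in length as a line. RDL1 stands 3.27 above the line, RDL2 0.56 above it, and YCH1 and TUM1 lie 0.67 and 0.86 below it.

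The genes around RDL1 on chromosome XV served as its reference. HUA2 (YOR284W), a gene of unknown function next upstream on the same strand, had 41.7 and 61.0 FPKM in UV02_HG, against 11.9 and 13.3 FPKM in MF02. RRP36 (YOR287C), a factor for ribosomal RNA processing that lies past RDL2 on the other strand, had 28.0 and 35.4 FPKM in UV02_HG, against 3.12 and 8.92 FPKM in MF02. For both genes the UV02_HG columns were at least 2-fold above both MF02 columns, as they were for 8.68% of all features. Their ratios were 1.95 (1.58 to 2.27) for HUA2 and 2.22 (1.55 to 3.15) for RRP36. Relative to genes of their length, 732 and 903 nt, these became 2.36 and 3.14. So HUA2, RDL1 and RRP36 stood above genes of their length by at least 2-fold, while RDL2 between them did so by 0.56.

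Further out the neighbours held ratios of both signs. MPD1, a protein disulfide isomerase gene beyond RRP36, had 20.6 and 14.7 FPKM in UV02_HG, against 76.9 and 115 FPKM in MF02, a ratio of -2.38 (-2.89 to -1.85) and -1.36 relative to length. YOR289W had 541 and 501 FPKM in UV02_HG, against 341 and 143 FPKM in MF02, a ratio of 1.10 (0.55 to 1.91) and 1.65 relative to length. SNF2, a chromatin remodeller gene, was lower, at -2.70 (-3.31 to -1.72) and -1.16 relative to length. On the upstream side YOR283W and PLP2 had ratios of 0.09 (-0.65 to 0.96) and -0.44 (-1.26 to 0.70). FSH3 and RFM1 had -0.62 and -1.04, and relative to length all 4 of these lay between -0.13 and 0.43. Of the 10 neighbours 4 were at least 2-fold higher (14.7% of all features were) and 3 lower by as much (47.2%), with a median of -0.18. Relative to length 3 were higher (17.3% of protein-coding genes) and 2 lower (16.9%), with a median of 0.41, against 3.27 for RDL1. As deposited, RDL1 was 4.05 above the median of the 10 neighbours. It was 2.38 above the median of the nearest 2 genes on each side, YOR283W, HUA2, RDL2 and RRP36. Neither gap was adjusted for length, and most of these neighbours are longer than RDL1. The 523 expressed protein-coding genes of chromosome XV had a median ratio of -1.003 (0.13 relative to length), and 0 of them exceeded RDL1.

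The levels of these neighbours were small beside RDL1. HUA2 was at 0.159 and 0.147% of the FPKM of RDL1 in the UV02_HG columns, against 0.346 and 1.12% in the MF02 columns. RRP36 was at 0.107 and 0.0855% in UV02_HG, against 0.0910 and 0.754% in MF02. RDL2 was at 2.48 and 0.872% in UV02_HG, against 8.03 and 18.4% in MF02. The counting's strand setting is not given in the sources used here. RDL1, HUA2, RDL2 and RRP36 overlap no other annotated gene in R64. HUA2, RDL2 and RRP36 were thus higher, as deposited, in the strain with more RDL1, and whether reads that run past the ends of RDL1 reach them was not tested.

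**Figure D3:**
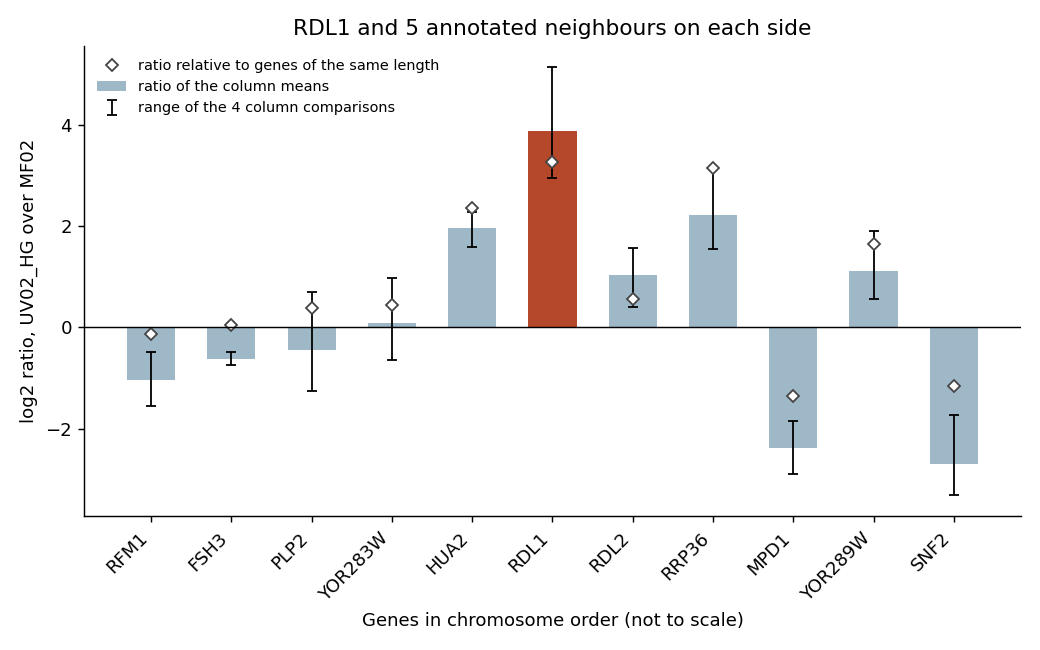
The log2 ratio of UV02_HG over MF02 for RDL1 and 5 annotated neighbours on each side, in chromosome order. Bars are ratios of the column means, whiskers the range of the 4 column comparisons and diamonds the ratio relative to genes of the same length; HUA2 and RRP36 at 1.95 and 2.22 are the tallest upward bars after RDL1 at 3.88, while MPD1 and SNF2 reach down to -2.38 and -2.70.

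TUM1 lies elsewhere on chromosome XV and YCH1 on chromosome VII. Beside TUM1, CLP1 was lower (-2.60, -2.85 to -2.31) and TMA16 and NAT5 had ratios of 0.51 and 1.56. On the far side of CLP1, APC5 had 0.17. Beside YCH1, PCT1 (-1.96), ADE3 (-2.83) and YGR201C (-1.59) were lower, and the 114-nt gene YGR204C-A was higher (2.65). So the nearest 2 genes on each side held ratios of both signs at TUM1 and at YCH1.

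Across the 4 columns, the pattern of RDL1 was compared with that of 5000 protein-coding genes of at least 10 FPKM in either strain. Likeness was the Euclidean distance between the log2(FPKM + 1) values after each gene was centred on its mean, over 4 columns of 2 samples. The median distance was 5.39. The nearest were YNL277W-A (0.42), the ribosomal protein genes RPL35A (0.57) and RPS31 (0.73), the mitochondrial ATP synthase subunit gene OLI1 (0.77), the histone H2A gene HTA1 (0.82), YBR209W (0.86), YOR008C-A (0.95) and the cytochrome oxidase subunit gene COX7 (0.96). RPL35A and HTA1 have near-identical copies, so their reads may be split among these. RPL35A had 14367 and 18908 FPKM in UV02_HG, against 1449 and 840 FPKM in MF02. All 8 were short, with coding lengths from 183 nt (COX7) to 459 nt (RPS31), and their ratios ran from 3.03 (COX7) to 4.25 (YNL277W-A). Like RDL1, all 8 had a lower MF02 value in column 2 than in column 1. They were picked by these same 4 columns, so this and their large ratios follow from the choice. Genes of their lengths also had negative median MF02 log2 ratios of column 2 over column 1, from -0.82 (YOR008C-A) to -0.30 (RPS31).

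**Figure D4:**
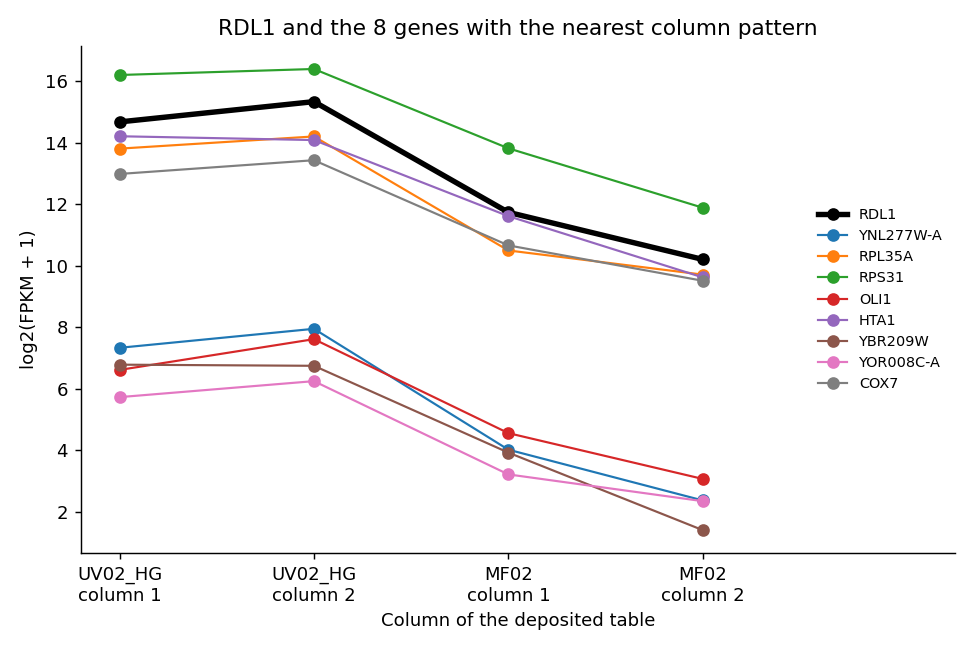
Level on the log2(FPKM + 1) scale (y axis) in the UV02_HG and MF02 columns for RDL1, in black, and the 8 genes whose centred values lie nearest to it. The lines run nearly parallel at different heights, with distances from 0.42 for YNL277W-A to 0.96 for COX7.

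Other yeast proteins carry a rhodanese fold in a larger protein. UBA4, which activates Urm1 and holds a rhodanese domain, had 2.66 and 4.0 FPKM in UV02_HG, against 22.0 and 46.1 FPKM in MF02, and was 8.10-fold lower (4.61 to 12.9-fold). Its UV02_HG values were low in both columns, and relative to length its ratio was -1.59. MIH1, the Cdc25-type phosphatase gene, was at -1.39 (-1.81 to -0.86), and 0.11 relative to length. The ubiquitin protease genes DOA4, UBP5 and UBP7 had ratios of -0.86, -0.34 and -1.60 and stood at 0.71, 1.22 and 0.03 relative to length. ARR2, the arsenate reductase gene, was at 0.75 (0.14 to 1.30), and 0.18 relative to length. Of these 6 genes UBA4, UBP7 and MIH1 (3) passed 2-fold downwards in UV02_HG, near the 47.2% of all features, and 0 passed it upwards, against 14.7%. Relative to length UBA4 (1) passed it downwards and UBP5 (1) upwards, against 16.9% and 17.3% of protein-coding genes.

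TUM1 feeds the pathway that thiolates transfer RNAs. A list of 15 genes held those for transfer RNA thiolation and for the Elongator complex, which modifies the same wobble uridines. It also held genes linked to Elongator and the transfer RNA methyltransferase genes TRM9 and TRM112. Of the 15, 11 were at least 2-fold lower (47.2% of all features were) and 1 was higher (14.7%). The median was -1.52 against -0.89 for all features. After centring on the median feature 4 were lower. Relative to length 4 were lower (16.9% of protein-coding genes) and 0 higher (17.3%), with a median of -0.36. TRM9 and TRM112 were among those lower in both counts, at -1.86 and -1.50 as deposited and -1.18 and -2.15 relative to length. NFS1, the desulfurase that supplies Tum1, had 14.4 FPKM in each UV02_HG column, against 56.8 and 108 FPKM in MF02, a ratio of -2.43 and -0.98 relative to length. KTI11, an Elongator-linked gene that overlaps YBL071C by 4 nt, had 7.71 and 2.46 FPKM in UV02_HG, against 29.8 and 35.0 FPKM in MF02. Its ratio was -2.46 (-3.38 to -1.82). As the gene is only 249 nt long, it was at -3.72 (-5.16 to -2.63) relative to length. Its UV02_HG values were low in both columns for so short a gene. The gene that was higher is URM1, the ubiquitin-like sulfur carrier of the relay. It had 187 and 347 FPKM in UV02_HG, against 69.0 and 117 FPKM in MF02, a ratio of 1.51 (0.67 to 2.31) and 0.46 relative to its length of 300 nt. NCS6, which encodes a subunit of the transfer RNA thiolation enzyme, had a ratio of -0.05 (-1.03 to 0.62). ELP6 had -0.14 (-0.38 to 0.14). As deposited, NFS1, TUM1 and UBA4, successive steps of the relay, were each at least 2-fold lower. Relative to length UBA4 alone of these 3 was, with NFS1 at -0.98 and TUM1 at -0.86, and URM1 is much shorter than all 3.

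Genes for sulfide, for the thiols on which rhodaneses act and for transport of sulfur compounds were divided as deposited, but not relative to length. Of 19 such genes 5 passed 2-fold upwards in UV02_HG and 6 downwards, against 14.7% and 47.2% of all features, with a median of 0.00. Relative to length 9 were higher (17.3% of protein-coding genes) and 0 lower (16.9%), with a median of 0.50. MET14 and MET16 alone were higher in both counts. MET16, which reduces activated sulfate, had 126 and 95.2 FPKM in UV02_HG, against 25.2 and 25.0 FPKM in MF02. MET14, one step before it, had a ratio of 3.15 (2.54 to 3.69). Relative to length MET16 was at 2.73 and MET14 at 3.18, the latter close to RDL1 at 3.27. The cytosolic thioredoxin gene TRX2 had 7153 and 7829 FPKM in UV02_HG, against 4105 and 1748 FPKM in MF02, a ratio of 1.36 and 0.43 relative to its length of 315 nt. These 3 had the largest positive ratios. The lowest were CYS4, the cystathionine beta-synthase gene, at -2.26, the glutathione reductase gene GLR1 at -2.17 and the sulfite exporter gene SSU1 at -2.11, which were -0.80, -0.81 and -0.73 relative to length. SUL1 and SUL2, whose products import sulfate and thiosulfate, had ratios of -0.03 and 0.00. Both stood above genes of their length, at 1.44 (0.43 to 2.19) and 1.47 (0.89 to 1.85). SUL1 was weakly expressed, at 3.13 and 2.47 FPKM in UV02_HG, against 3.03 and 2.74 FPKM in MF02.

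In mitochondria Nfs1 also supplies sulfur for iron-sulfur clusters. Of 14 genes for cluster assembly 9 were at least 2-fold lower (47.2% of all features) and 1 was higher (14.7%), with a median of -1.25. Relative to length 6 were lower (16.9% of protein-coding genes) and 0 higher (17.3%), with a median of -0.84. JAC1, a cochaperone gene of the pathway, had 15.4 and 15.5 FPKM in UV02_HG, against 68.9 and 68.3 FPKM in MF02. It was thus nearly level between columns of a strain, with a ratio of -2.08 and -2.11 relative to length. After NFS1 and JAC1, the next lowest as deposited was IBA57 at -1.80 (-0.34 relative to length). Relative to length, ACP1 (-2.04) and YFH1 (-1.93) came next after JAC1, and NFS1 was at -0.98. ISD11, which encodes the small partner protein of Nfs1, was the one that was higher, at 1093 and 1466 FPKM in UV02_HG, against 439 and 354 FPKM in MF02, a ratio of 1.69 (1.31 to 2.04) and 0.52 relative to its length of 285 nt. GRX5 and ISU2 had ratios of 0.50 (-0.31 to 1.44) and -0.25 (-0.45 to -0.02).

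**Figure D5:**
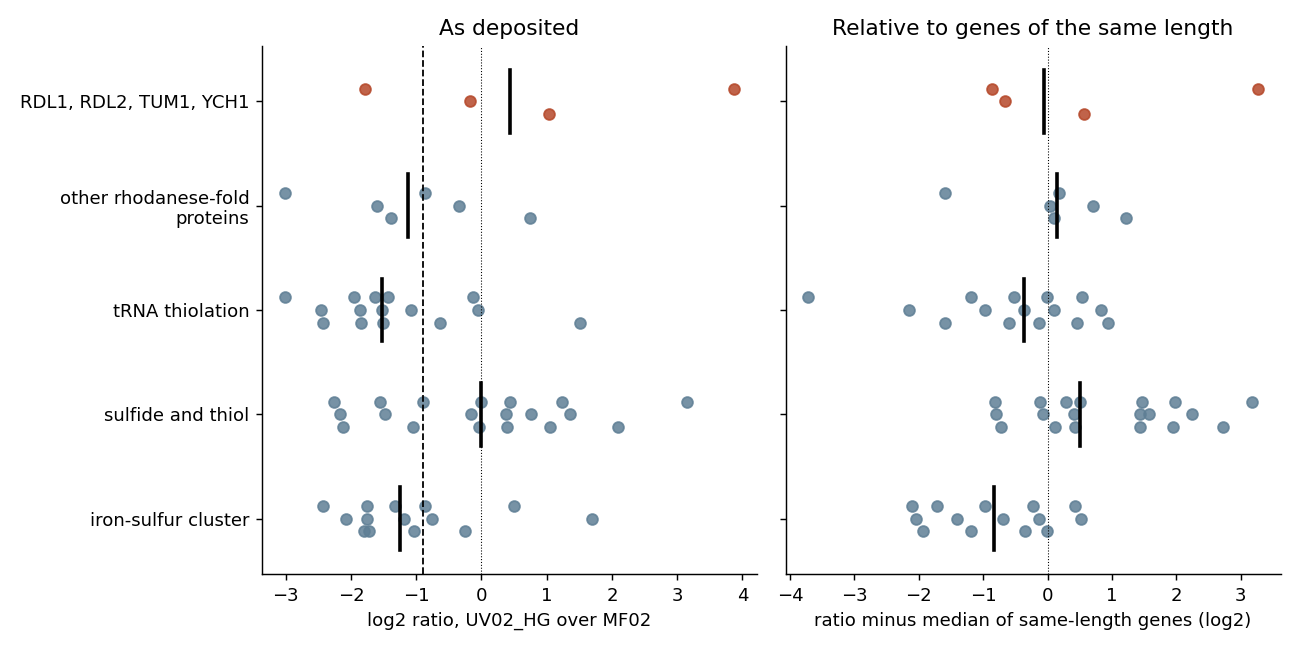
The log2 ratio of UV02_HG over MF02 for each gene of 5 groups as deposited (left) and minus the median of genes of the same length (right). Points are genes, thick bars are group medians and the dashed line is the median of all features, -0.89; the RDL1 point at 3.88 and 3.27 lies to the right of all other points in both panels.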

How the data were processed

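RNA-seq was done on 1 sample each of UV02_HG and MF02. HTSeq 0.6.1, TopHat2 2.0.12 and Bowtie2 2.2.3 are named in the submitters' processing notes; for the strand setting, annotation and build, nothing is given in the sources used here. Values deposited by the authors are FPKM, per the file headers in 2 columns per strain, which were treated as runs of 1 sample. Another 4 lines were empty and not analysed here.

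Identifiers were matched to R64 locus tags (6045 of 7163), used for names, gene order and coding lengths; no coordinates or sequences are printed. Multiplied by coding length, the FPKM gave whole reads (within 0.02) for 99.8% of genes in UV02_HG columns 1 and 2 and for 99.9 and 99.8% in MF02 columns 1 and 2, which gave the library totals. No count test was run, with 1 sample per strain.

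Features that reached 1 FPKM in UV02_HG or MF02 were kept, and 2-fold means a log2 ratio of 1 in size. The members and gene lists were chosen with earlier results of these data known. Genes named are the members, 5 neighbours on each side of RDL1 and 2 of TUM1 and YCH1, the 3 highest and 3 lowest of each list at 10 FPKM or more, and the 8 genes nearest in pattern to RDL1; others were named after their values were seen. SUL1, SUL2, ACP1, YFH1 and members of the rhodanese-fold list beyond that rule are among these. Alternatives were other pseudocounts, scalings, windows, filters and single columns. Recovery of read totals and of planted changes relative to length was tested on simulated reads. In these the columns of a strain differed by counting error only, and the other measures were not tested. Software was scipy 1.17.1, pandas 2.3.3 and numpy 2.4.6 under Python 3.11.15, with figures by matplotlib 3.10.9.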

Additional observations from a re-analysis of the deposited data

How the results depend on the processing

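No paired analysis was possible because there is 1 sample per strain. RDL1 stayed positive in all 9 alternatives for its ratio (2.86 to 5.13), TUM1 stayed negative in all 9 (-2.95 to -0.90), and YCH1 kept its sign in 5 of 9. RDL1 had been chosen for its rise in these same columns, so nothing is read from its constant sign. The gaps of RDL1 above its neighbours given here are not adjusted for length. Rescaling to equal FPKM totals gave ratios of 2.86 for RDL1, -0.066 for RDL2, -2.95 for TUM1 and -1.19 for YCH1, and 4.24 for RDL1 above its neighbours. The trimmed mean of M values gave 4.601, 1.82, -0.93, 0.57 and 3.85 in that order, and centring on the median feature gave 4.77, 1.92, -0.90 and 0.72 for the ratios. With 5 FPKM as pseudocount TUM1 was at -1.64 and RDL1 stood 4.03 above its neighbours, against 2.38 with the nearest 2 neighbours on each side and 4.19 with 10. Relative to length, RDL1 was at 3.24 and 3.37 with pseudocounts of 0.1 and 5 FPKM, and at 3.24 and 3.31 with a smaller and a larger window of genes nearest in length, and TUM1 was at -1.05 with the smaller window. Over single columns the ratios ran from 2.94 to 5.13 (RDL1), 0.39 to 1.57 (RDL2), -2.33 to -1.19 (TUM1) and -1.27 to 1.05 (YCH1), RDL1 stood 2.62 to 5.53 above its neighbours, and relative to length the ratios ran from 2.52 to 4.35, 0.065 to 0.97, -1.25 to -0.53 and -1.59 to 0.34. Features at least 2-fold higher numbered 333 with equal totals, 1669 with the trimmed mean and 1797 with centring, and those lower 4424 with equal totals, 1429 with the trimmed mean and 1296 with centring; single columns gave 779 to 1104 higher and 2048 to 3304 lower. Genes of the transfer RNA thiolation list at least 2-fold lower numbered 14 with equal totals, 5 with the trimmed mean, 4 with centring and 7 to 12 over single columns. Those higher numbered 0 with equal totals and 0 to 1 over single columns. Sulfide and thiol genes at least 2-fold higher numbered 1 with equal totals, 9 with the trimmed mean, 9 with centring and 2 to 6 over single columns, and those lower 9 with equal totals, 3 with the trimmed mean, 3 with centring and 4 to 7 over single columns. The cause of these shifts was not tested. Depth did not limit the 4 genes, whose lowest count was 238 reads, for TUM1 in UV02_HG; with 1 sample per strain the spread between cultures is unknown.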
